A study of Mus musculus with 16 samples.

Results

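The genotype by fluoxetine interaction asks, gene by gene, whether early fluoxetine treatment left a different mark in mice lacking 1 copy of Arid1b than in wild-type mice. For each gene it is the change with fluoxetine in heterozygotes minus the change with fluoxetine in wild type, on the log2 scale of the normalized read count plus 1. A positive value means that the mean with fluoxetine lay further above, or less far below, that with vehicle in heterozygotes than in wild type. All 16 samples of the series and all 18424 listed genes belong to it, and 17567 genes were tested after genes with low values were removed.

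The study sequenced poly-A RNA from the medial prefrontal cortex of male C57BL/6N mice at postnatal day 120. The 4 groups, each of 4 mice, were wild type with vehicle (WT-Veh), wild type with fluoxetine (WT-Flx), Arid1b heterozygotes with vehicle (HT-Veh) and Arid1b heterozygotes with fluoxetine (HT-Flx). HT mice carried, in every cell, 1 Arid1b allele with a CRISPR/Cas9 deletion around exon 5 and an inserted TT, and all mice of both genotypes had a heterozygous father and a wild-type mother. Dams drank water with 0.2% saccharin, and in the Flx groups also 0.1 mg per ml fluoxetine, so that pups of every group met saccharin and those of the Flx groups met the drug through milk from postnatal day 3 to 21. The dose each pup received was therefore not measured, and all mice drank plain water from weaning on, so that adult tissue was taken long after the drug.

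Arid1b encodes a DNA-binding subunit of the SWI/SNF (BAF) complex, which moves nucleosomes with the energy of ATP and opens regulatory DNA. Fluoxetine is a selective serotonin reuptake inhibitor: it blocks the serotonin transporter and so prolongs serotonin signalling, which in early life also guides the growth of cortical circuits. A gene can show an interaction because the drug acts in 1 genotype only, because it acts with different strength, or because it acts in opposite directions, and these forms are told apart by looking at the 4 groups themselves.

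Markers of cortical projection neurons were expressed in every mouse, with a mean log2 level of 10.83 to 11.31 over 13 upper-layer genes. Markers of neighbouring tissue differed between mice. A score over 8 measured markers of olfactory bulb projection neurons (mean log2 level) was 9.15, 3.37, 4.06 and 3.44 in WT-Veh replicates 1 to 4, 7.01, 7.48, 4.29 and 8.69 in WT-Flx, 3.91, 3.29, 3.66 and 7.27 in HT-Veh, and 3.78, 3.91, 3.22 and 3.88 in HT-Flx. Scores above 5 were found in 1 of 4 WT-Veh, 3 of 4 WT-Flx, 1 of 4 HT-Veh and 0 of 4 HT-Flx mice, so the score itself has a negative interaction. Its part in the results below was not tested beyond the values given beside them. Sequencing depth is unknown, since the values are normalized and are not whole reads. The labels name each sample as a separate mouse but not its litter, so that p-values measure the spread between these mice. Fluoxetine was given to dams, and mice of a group may share a dam. The fit treats mice as independent, so its p-values do not measure the spread between dams and may be too small. In whole tissue, fewer cells of a type and less RNA per cell cannot be told apart.

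No gene showed an interaction past the adjusted threshold. Among the 17567 genes tested with limma, 0 (0%) had an adjusted p under 0.05 and the smallest adjusted p was 0.596. At an unadjusted p under 0.05 there were 754 genes (4.29%), 351 with a positive (2%) and 403 with a negative interaction (2.29%). Without WT-Veh replicate 1 the unadjusted count was 1684 and without WT-Flx replicate 1 it was 1182, and the adjusted count was again 0 in both.

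The size of interaction that these 16 mice could resolve depended on the level of the gene. The median standard error of the interaction was 0.21 on the log2 scale over all genes, 0.53 below a mean value of 100, 0.20 from 100 to 1000 and 0.14 in both classes of higher genes. The median 95% confidence interval reached 0.45 to either side, a 1.36-fold difference between the drug changes. For 71.9% of genes the whole interval lay between -1 and 1 on the log2 scale, and in both classes above 1000 this held for 98.1% and 98.4%.

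The genes nearest to an interaction mostly had drug changes that pointed opposite ways. Of the 403 genes with a negative interaction at an unadjusted p under 0.05, 386 were higher on average with fluoxetine in WT and lower in HT, and of the 351 with a positive one, 335 were lower in WT and higher in HT. Opposite signs were found for 95.6% of these 754 genes and for 53.1% of all genes, and choosing genes by the difference of both changes itself favours opposite signs. The change was the larger in WT for 63.3% of the 754 and for 57.2% of all genes. Over all genes the change in WT and the change in HT, which share no mice, had a Pearson r of -0.12 and a Spearman rho of -0.077 across genes, and 46.9% of genes had the same sign. Genes are not independent replicates, and these values describe the 16 mice only.

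**Figure D1:**
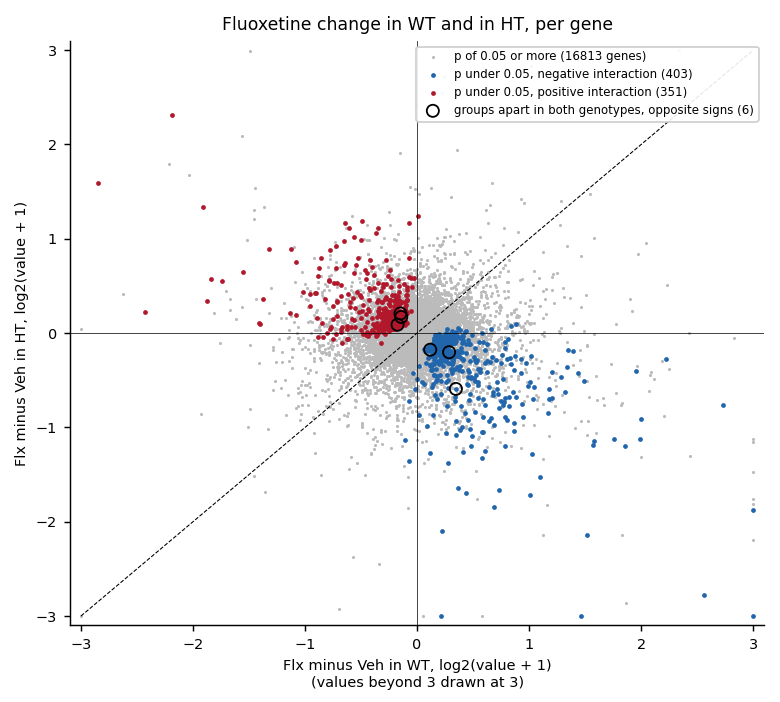
Change with fluoxetine in WT (horizontal) and in HT (vertical) for each of the 17567 genes, as differences of mean log2(value + 1) over 4 mice per group. Blue and red points are the 403 and 351 genes with a negative or positive interaction at an unadjusted p under 0.05. Open circles are the 6 genes whose drug groups were apart in both genotypes with opposite signs. The dashed line marks equal changes, and changes beyond 3 are drawn at 3. Most red points (335 of 351) lie at the upper left and most blue points (386 of 403) at the lower right, where the signs of the changes differ.

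Arid1b itself (ENSMUSG00000069729, chromosome 17, 4994332 to 5347656, GRCm38) was checked first. It was at 1787, 2453, 2831 and 2401 in WT-Veh, 1902, 2433, 2255 and 2047 in WT-Flx, 2005, 1753, 1802 and 1619 in HT-Veh, and 1669, 1661, 1671 and 1545 in HT-Flx. HT mice were the lower on average in each treatment, though WT-Veh replicate 1 lay among the HT-Veh mice. The drug change was -0.12 (SE 0.12) in WT and -0.13 (SE 0.12) in HT, which left an interaction of -0.0099 (SE 0.16, 95% interval -0.36 to 0.34, limma adjusted p 0.998). Its sign was not fixed, and leaving out WT-Veh replicate 1 gave 0.12.

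Among genes with negative interactions, the coding genes with the smallest p had their highest mean in WT-Flx. Pfdn2 (ENSMUSG00000006412, chromosome 1, 171345670 to 171359254) encodes a subunit of prefoldin, which hands newly made actin and tubulin to the folding chamber of the chaperonin. It was at 2134, 1814, 1907 and 1902 in WT-Veh, 2771, 2528, 2565 and 2903 in WT-Flx, 1909.9, 2043, 2211 and 1871 in HT-Veh, and 2026, 1763, 1736 and 1866 in HT-Flx. All 4 WT-Flx mice lay above every other mouse of the study, while HT-Veh and HT-Flx overlapped. The change was 0.47 (SE 0.08) in WT and -0.12 (SE 0.08) in HT, and the interaction -0.59 (SE 0.11, 95% interval -0.83 to -0.35, limma unadjusted p 6.4e-05, adjusted p 0.596). Over the 29 alternative settings it ran from -0.64 to -0.43. The value of -0.43 is from the linear scale and is not in log2 units. It was -0.54 with the bulb score as a covariate. The other 13 measured prefoldin and chaperonin subunits gave 1 more unadjusted p under 0.05, for Cct6a (interaction -0.26, SE 0.12, limma adjusted p 0.998). Cct6a was at -0.15 with the bulb score fitted as a covariate and at -0.24 without 4 mice set aside for their bulb markers (named below). The list thus held 2 of 14 (14.3%, against 4.29% of all genes), and its median was -0.09. Pfdn2 had the smallest p of all genes, and lists were chosen with earlier results of these data known. This share is therefore no support for an interaction.

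Pi4kb (ENSMUSG00000038861, chromosome 3, 94974731 to 95006843), a kinase that makes phosphatidylinositol 4-phosphate at the Golgi, differed from Pfdn2 in that HT contributed as well. It was at 1076, 941, 1037 and 959 in WT-Veh, 1427, 1176, 1264 and 1138 in WT-Flx, 1254, 1050.2, 1089 and 1135 in HT-Veh, and 875, 1063, 837 and 964 in HT-Flx. The WT groups did not overlap, and in HT a single pair of mice did. The changes were 0.32 (SE 0.095) and -0.28 (SE 0.095), nearly mirror images, with an interaction of -0.59 (SE 0.13, limma adjusted p 0.998).

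Neto1 and Top2b, both at work in neurons, also had their highest mean in WT-Flx. Neto1 (ENSMUSG00000050321), an auxiliary subunit of kainate receptors, was at 3214, 3618, 3471 and 3308 in WT-Veh, 4411, 4828, 4302 and 4344 in WT-Flx, 3390.3, 3907, 3885 and 4088 in HT-Veh, and 3484, 2780.4, 3832 and 3685 in HT-Flx. Again no other mouse reached the WT-Flx range. Its interaction was -0.55 (SE 0.13, limma adjusted p 0.998). Top2b (ENSMUSG00000017485, chromosome 14, 16365179 to 16435462), the topoisomerase of postmitotic neurons, was at 2825 to 3186 in WT-Veh, 3195 to 4588 in WT-Flx, 2960.2 to 3379.9 in HT-Veh and 2387 to 3009 in HT-Flx, and its interaction was -0.55 (SE 0.14, adjusted p 0.998). The nearest WT mice of the drug groups were at 3186 and 3195, so that the WT groups were only just apart.

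The remaining coding genes of this end were of lower level or wider spread. Dnah14, a dynein heavy chain, had an interaction of -1.89 (SE 0.43). It was -1.26 on setting aside 4 mice for their bulb markers (replicates 1 and 4 of WT-Flx, 1 of WT-Veh and 4 of HT-Veh). That choice kept WT-Flx replicate 2, whose bulb score of 7.48 was above those of WT-Flx replicate 1 (7.01) and HT-Veh replicate 4 (7.27). Values without the 4 mice are therefore not free of bulb markers. Without the 5 mice with a score above 5 Dnah14 was at -0.86. Here and below, values without those 5 mice rest on WT-Flx replicate 3 alone for its group. Samd3 (-1.86, SE 0.44) and Llgl2 (-1.83, SE 0.44), a regulator of cell polarity, had values of 92.0 or less in all mice, and both were apart between the HT groups and overlapping between the WT groups. Svil, which links the membrane to actin, had -1.12 (SE 0.29) and Nop58, of the box C/D small nucleolar particle, had -0.58 (SE 0.15). Each of these 5 genes had a limma adjusted p of 0.998.

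**Figure D2:**
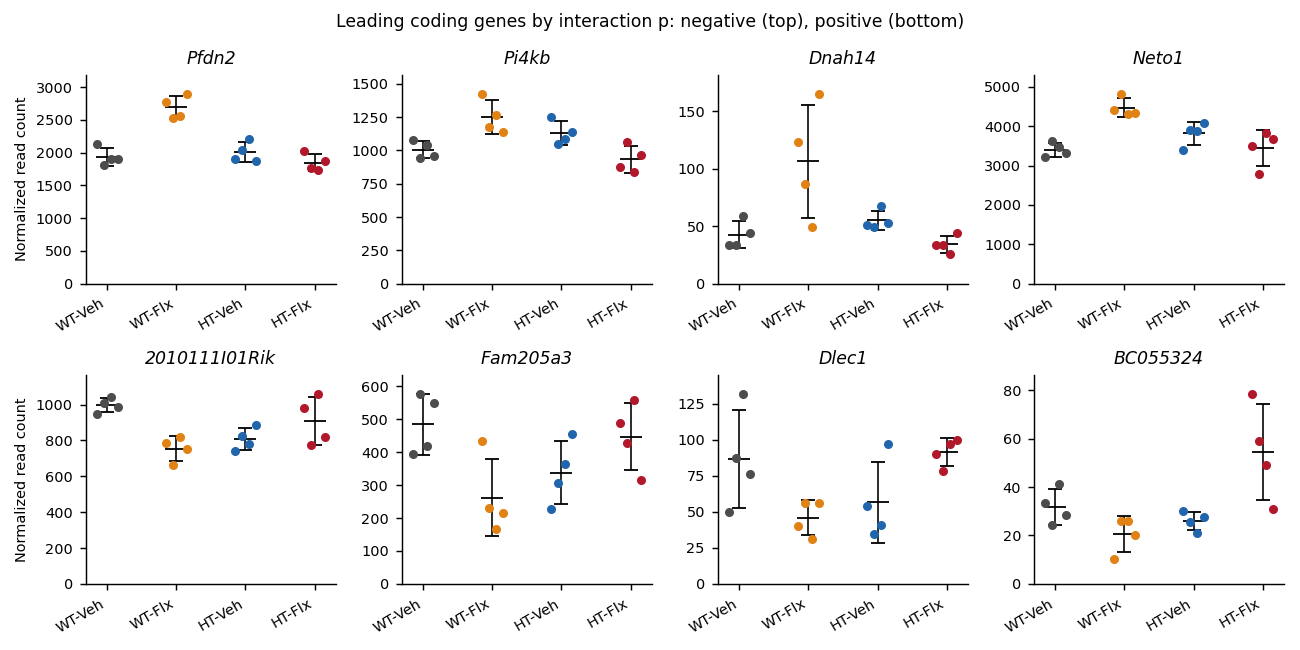
Normalized read counts of 4 leading coding genes with a negative interaction (top) and of 4 with a positive one (bottom) in each of the 16 mice; points are mice, bars the mean ± SD of 4 mice. In Pfdn2 and Neto1 the WT-Flx mice lie above all others, and in 2010111I01Rik the WT-Veh mice lie above WT-Flx while the HT groups overlap.

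At the positive end WT-Flx was the low group for several genes. 2010111I01Rik (ENSMUSG00000021458, chromosome 13, 62964893 to 63326096), which encodes an aminopeptidase, was at 946, 1011, 1042 and 989 in WT-Veh, 787, 661, 818 and 753 in WT-Flx, 739, 825, 779 and 886 in HT-Veh, and 982, 772, 1059.9 and 818 in HT-Flx. The WT groups were apart and the HT groups were not. The interaction was 0.57 (SE 0.15, limma adjusted p 0.998).

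Clstn3 (ENSMUSG00000008153, chromosome 6, 124430759 to 124464794), a calsyntenin that acts as a postsynaptic adhesion protein, was at 8324, 8754, 8812 and 8940.3 in WT-Veh, 7816, 6276, 6867 and 6649 in WT-Flx, 8047, 7854, 7542 and 7788 in HT-Veh, and 7137, 8099, 8655 and 8218 in HT-Flx. The WT groups did not overlap, with a change of -0.34 (SE 0.076), and HT was at 0.037 (SE 0.076), giving an interaction of 0.38 (SE 0.11, limma adjusted p 0.998).

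Hsd11b1 (ENSMUSG00000016194, chromosome 1, 193221634 to 193264075) regenerates active corticosterone inside cells. It was at 308, 372, 391 and 383 in WT-Veh, 275, 245, 306 and 252 in WT-Flx, 237, 288, 311 and 210.4 in HT-Veh, and 325, 292, 308 and 291 in HT-Flx. WT-Veh mice had the highest mean, the WT groups were apart by the narrow step from 306 to 308, and the HT groups overlapped. The interaction was 0.66 (SE 0.18, limma adjusted p 0.998). The list of 14 measured glucocorticoid and stress genes held 2 at an unadjusted p under 0.05 (14.3%, against 4.29% of all genes). Besides Hsd11b1 this was Nr3c2, the mineralocorticoid receptor, which lay on the other side (-0.25, SE 0.11, limma adjusted p 0.998). The median of the list was 0.11. A share that counts Hsd11b1, a leading gene by p, is no support for an interaction.

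Dolpp1 (ENSMUSG00000026856, chromosome 2, 30392254 to 30400529), which recycles the dolichol carrier of N-glycosylation, showed its difference in HT. It was at 453, 465, 528 and 403 in WT-Veh, 458, 450.2, 373 and 515 in WT-Flx, 322, 309, 324 and 311 in HT-Veh, and 408, 454, 466 and 448 in HT-Flx. The 4 HT-Veh mice lay below all 12 others, and HT-Flx lay in the range of WT. The change was -0.044 (SE 0.11) in WT and 0.48 (SE 0.11) in HT, and the interaction 0.53 (SE 0.15, limma adjusted p 0.998).

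Of the other leading positive genes, Fancg, of the Fanconi anaemia DNA repair complex, had an interaction of 0.62 (SE 0.17) with the WT groups apart, and Tmem198, a membrane protein, had 0.58 (SE 0.16) with the HT groups apart and 0.37 without the 5 mice with a bulb score above 5. Dlec1 (1.65, SE 0.44), BC055324 (1.63, SE 0.45) and Abhd15 (1.73, SE 0.48) had values of 132 or less in all mice. Fam205a3 (1.38, SE 0.37) belongs to a family of closely similar copies, so that its reads may be divided among them. Without those 5 mice Dlec1 was at 2.67 and Fam205a3 at 2.18. These values and that of Tmem198 rest on WT-Flx replicate 3 alone for its group. All 6 had a limma adjusted p of 0.998.

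Genes other than coding genes were led by AC123659.1, a processed pseudogene listed at 0 in every mouse of WT-Veh and of HT-Flx, at 11.7 to 42.4 in WT-Flx, and at 0, 0, 12.4 and 12.4 in HT-Veh (limma adjusted p 0.596). Gm38317, another processed pseudogene, was listed at 0 in all HT-Flx mice. Reads of both can be shared with their parent genes. The positive side was led by Gm10069 (2.20, SE 0.57), which lies antisense to other transcripts, 4930447M23Rik (0.97, SE 0.28), a long noncoding RNA, and Gm7435 (2.22, SE 0.77), a transcribed pseudogene. The 3 of them and Gm49552 (-1.67, SE 0.48), a transcript of unsettled type, had a limma adjusted p of 0.998 and values of 1.65 to 162. The library kit keeps the strand, and how the strand was used in quantification is not given in the sources used here.

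Drug groups that did not overlap in either genotype and pointed opposite ways were seen in 6 genes (0.0342%). For comparison the drug groups did not overlap for 2.9% of genes in WT and for 2.03% in HT. In the same direction in both, 5 genes were apart. The 6 are about as many as these 5, so their count is no evidence of an interaction and the genes are only described. In 3 of the 6, fluoxetine mice were the higher in WT and the lower in HT, and in the other 3 the reverse.

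Msh3 (ENSMUSG00000014850, chromosome 13, 92211872 to 92355003), a mismatch repair protein, was at 653, 503, 537 and 537 in WT-Veh, 656, 678, 672 and 701 in WT-Flx, 644, 607, 588 and 654 in HT-Veh, and 574, 488, 586 and 522 in HT-Flx. In each genotype the nearest mice of the 2 drug groups were only a few counts apart, 653 against 656 and 588 against 586. Its interaction was -0.49 (SE 0.13, limma adjusted p 0.998).

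Stim2 (ENSMUSG00000039156, chromosome 5, 53998499 to 54121057), a sensor of calcium in the endoplasmic reticulum, was at 1732, 1685, 1546 and 1694 in WT-Veh, 1883, 1801, 1744 and 1791 in WT-Flx, 1835, 1835, 1898 and 2215 in HT-Veh, and 1650.2, 1669, 1735 and 1816 in HT-Flx. HT-Veh had the highest mean and WT-Veh the lowest. The interaction was -0.29 (SE 0.10, limma adjusted p 0.998). Ror2, a Wnt receptor, had -0.94 (SE 0.36, adjusted p 0.998) at values of 12.2 to 38.8, close to the filter on low values, which asked for 10 or more in at least 4 mice.

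Among the positive ones, Map3k4 (ENSMUSG00000014426, chromosome 17, 12227621 to 12318796), a kinase of the stress-activated pathway, was at 1171, 1248, 1378 and 1231 in WT-Veh, 1136, 1144, 1159 and 1091 in WT-Flx, 1188, 1079.8, 1099 and 1089.6 in HT-Veh, and 1203, 1352, 1338 and 1255 in HT-Flx. WT-Veh and HT-Flx were the high groups and WT-Flx and HT-Veh the low ones. The interaction was 0.36 (SE 0.10, limma adjusted p 0.998).

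Dnaja4 (ENSMUSG00000032285, chromosome 9, 54698873 to 54716315), a co-chaperone, had the same order, at 1295 to 1502 in WT-Veh, 1204 to 1249 in WT-Flx, 1171 to 1285 in HT-Veh and 1320.5 to 1464 in HT-Flx, with an interaction of 0.31 (SE 0.097, limma adjusted p 0.998). Ube2o (ENSMUSG00000020802, chromosome 11, 116537740 to 116581447), a ubiquitin-conjugating enzyme, was at 4368 to 4479 in WT-Veh, 3693 to 4288 in WT-Flx, 4044 to 4224 in HT-Veh and 4338 to 4609 in HT-Flx, with 0.26 (SE 0.085, adjusted p 0.998). In all 3 genes HT-Flx means lay near those of WT-Veh, at 1287 and 1257 for Map3k4, 1382 and 1362 for Dnaja4, and 4428 and 4413 for Ube2o.

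**Figure D3:**
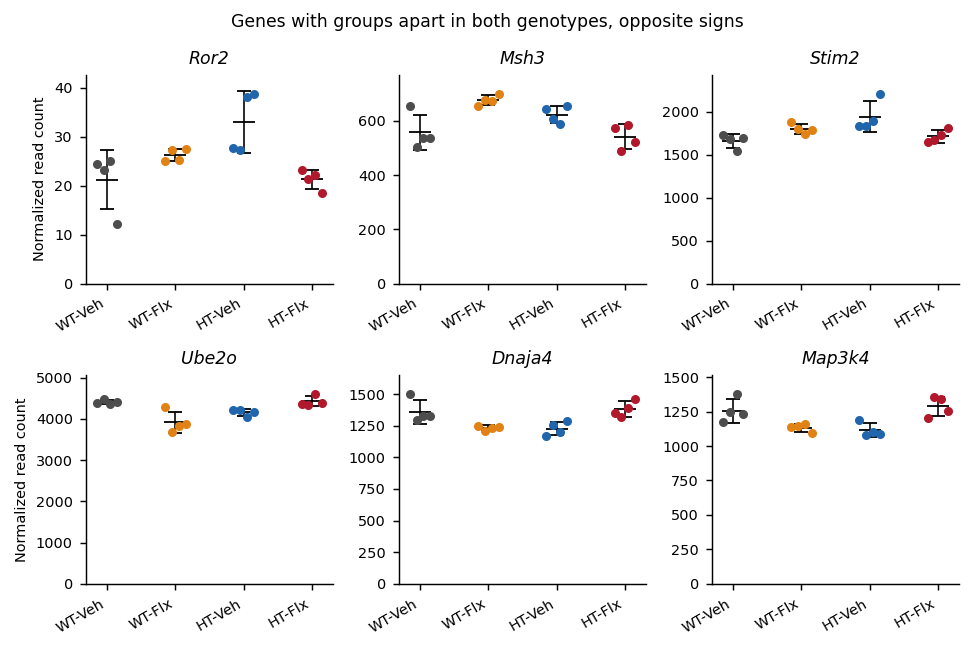
Normalized read counts of the 6 genes whose drug groups did not overlap in either genotype and pointed opposite ways; points are mice, bars the mean ± SD of 4 mice per group. Msh3, Stim2 and Ror2 are higher in WT-Flx than WT-Veh and lower in HT-Flx than HT-Veh, and Map3k4, Dnaja4 and Ube2o the reverse.

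All 32 gene lists were then read in the same contrast, and none held a gene past the adjusted threshold. The list that stood farthest on the positive side was cholesterol synthesis. Neurons and glia make cholesterol locally, since lipoproteins of the blood do not cross into the brain, and the enzymes of the pathway are switched on together by the transcription factor Srebf2 (SREBP-2), which binds promoters together with the CCAAT-binding factor NF-Y. All 22 of its measured genes had a positive interaction, against 50.3% of all genes tested, with a median of 0.25 against 0.0021. At an unadjusted p under 0.05 there were 7 of 22 (31.8%, against 4.29% of all genes), and 0 passed the adjusted threshold. The genes of this pathway are regulated together, so they do not count as 22 separate observations, and this list is 1 of 32 that were looked at. The lists were chosen with earlier results of these data known, so these shares are no independent evidence.

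The members followed 1 pattern in varying degree. The mean was lower with fluoxetine in WT for 21 of 22 genes (median change -0.14) and higher in HT for 17 of 22 (median 0.13). Both held for 16 of 22, and for 4747 of the 17567 genes tested. HT-Veh means were below WT-Veh means for all 22, and the share over all genes is not given here. Drug groups were apart for 2 of 22 genes in WT and for 0 of 22 in HT, where all genes gave 2.9% and 2.03%. Averaged over the list, log2 levels were 10.28, 10.44, 10.35 and 10.36 in WT-Veh, 10.30, 10.22, 10.19 and 10.13 in WT-Flx, 10.09, 10.24, 10.17 and 10.19 in HT-Veh, and 10.18, 10.40, 10.24 and 10.35 in HT-Flx. WT-Veh had the highest mean and HT-Veh the lowest, and each drug group overlapped its vehicle group.

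Idi1 (ENSMUSG00000058258, chromosome 13, 8885501 to 8892451), which makes the isoprenoid building block, had the smallest p of the list. It was at 1758, 1887, 1665 and 1788 in WT-Veh, 1493, 1625, 1641 and 1518 in WT-Flx, 1236, 1459, 1551 and 1554 in HT-Veh, and 1614, 1614, 1546 and 1742 in HT-Flx. The WT groups were apart, and in HT a single drug mouse lay within the vehicle range. The interaction was 0.35 (SE 0.11, 95% interval 0.11 to 0.59, limma adjusted p 0.998).

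Dhcr7 (ENSMUSG00000058454, chromosome 7, 143823145 to 143848410) catalyses the last step to cholesterol. It was at 666, 813, 825 and 755 in WT-Veh, 641, 623, 651 and 569 in WT-Flx, 751, 675, 652 and 586 in HT-Veh, and 706, 738, 698 and 695 in HT-Flx. WT-Veh lay above WT-Flx without overlap, and the HT groups overlapped. Its interaction was 0.39 (SE 0.13, limma adjusted p 0.998).

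Mvd, which decarboxylates mevalonate diphosphate, had the largest interaction of the list, 0.70 (SE 0.27, limma adjusted p 0.998). It was at 472, 459, 413 and 419.8 in WT-Veh, 473, 297, 296 and 341 in WT-Flx, 326, 338, 293 and 381 in HT-Veh, and 325, 687, 401 and 363 in HT-Flx. HT-Flx replicate 2 stood far above the others, and without it the interaction was 0.47. Hmgcs1, which makes HMG-CoA, was at 6082 to 7413 in WT-Flx and 6781 to 7969 in WT-Veh, and at 5846 to 6692 in HT-Veh and 6149 to 9527 in HT-Flx. The highest value was again that of HT-Flx replicate 2, and the interaction was 0.35 (SE 0.16, adjusted p 0.998).

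Hsd17b7 (0.48, SE 0.19) and Sqle (0.33, SE 0.14), both enzymes of later steps, were also among the 7. Among those that stayed above 0.05 were Fdps (0.45, SE 0.23), Srebf2 (0.16, SE 0.11) and Insig1, which holds SREBP back (0.069, SE 0.12). Pmvk lay closest to 0 (0.024, SE 0.16). Over the 29 alternatives 21 or 22 of the 22 were positive and the median ran from 0.18 to 0.31. That range includes the linear-scale fit, which is not in log2 units. The count at an unadjusted p under 0.05 was 3 without WT-Veh replicate 2, 4 without WT-Flx replicate 4 or HT-Flx replicate 2, 11 without the 4 mice set aside for their bulb markers and 12 with sample quality weights. Lists of the cells that make most brain cholesterol had medians of -0.072 (oligodendrocyte lineage, 20 genes) and -0.021 (astrocytes, 15 genes), and their part in the result was not tested.

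**Figure D4:**
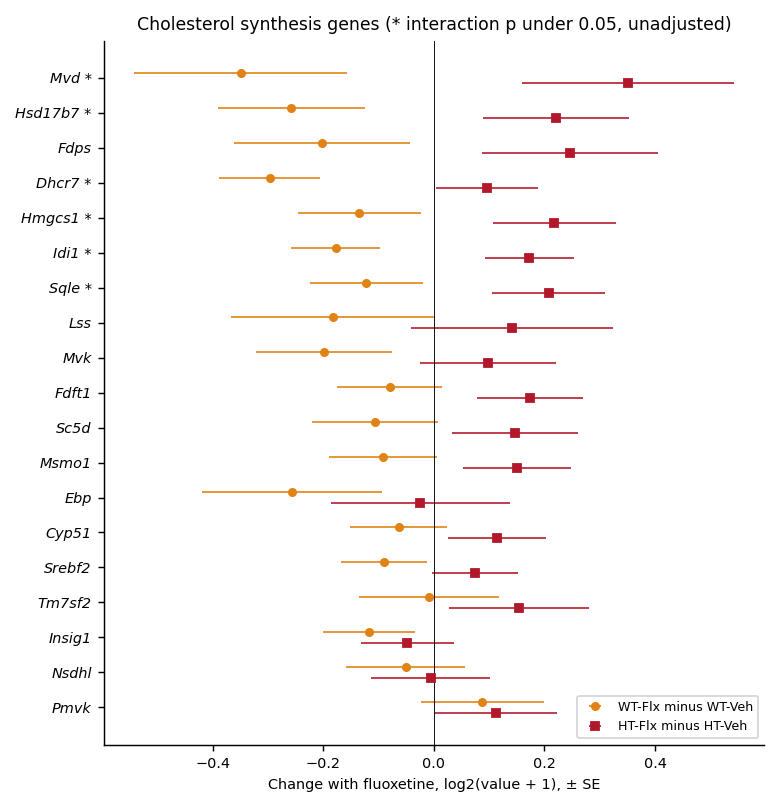
Change with fluoxetine (difference of mean log2(value + 1), bars ± SE of the fit) in WT (circles) and HT (squares) for 19 of the 22 cholesterol synthesis genes, in order of their interaction; stars mark those with an unadjusted interaction p under 0.05. The HT point lies to the right of the WT point for every gene shown, by 0.024 in Pmvk to 0.70 in Mvd, and many bars reach across 0.

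Because these genes lay on the same side of 0, their promoters are shown, from 250 bases before to 50 after the annotated start (RefSeq, GRCm38.p6). They were searched on both strands for 2 motifs, which share no base in the sequences below: TCACNCCAC, a form of the sterol response element, and CCAAT, the NF-Y box. Of the 22 genes 16 had a promoter entry. CCAAT was in at least 1 promoter of 16 of 16 of them and in 41.1% of the 27025 genes with an entry, and TCACNCCAC was in 1 of 16, Hmgcs1, and in 1.44% of all genes. A match is no evidence of binding, and a missing match says only that these letters do not occur in the window. The shares describe the sequence of these genes and are no support for their interaction. Fdps, Fdft1 and Sqle were among those with no entry. Dhcr7, also among the 7 genes with an unadjusted p under 0.05, is not shown. Its windows that start at 143822917 and 143823149 held 0 CCAAT, and the window that starts at 143829964 held 2. Below are 4 of the 7 genes with an unadjusted p under 0.05, with both motifs or their reverse complements in capitals.
Idi1, chr13:8885356-8885655, plus strand: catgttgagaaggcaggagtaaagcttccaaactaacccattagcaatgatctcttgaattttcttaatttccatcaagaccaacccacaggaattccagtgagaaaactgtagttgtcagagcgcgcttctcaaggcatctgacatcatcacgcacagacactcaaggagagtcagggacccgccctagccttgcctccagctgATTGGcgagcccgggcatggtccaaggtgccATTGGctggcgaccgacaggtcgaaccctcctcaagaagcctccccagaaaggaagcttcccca
Hsd17b7, chr1:169969156-169969455, minus strand: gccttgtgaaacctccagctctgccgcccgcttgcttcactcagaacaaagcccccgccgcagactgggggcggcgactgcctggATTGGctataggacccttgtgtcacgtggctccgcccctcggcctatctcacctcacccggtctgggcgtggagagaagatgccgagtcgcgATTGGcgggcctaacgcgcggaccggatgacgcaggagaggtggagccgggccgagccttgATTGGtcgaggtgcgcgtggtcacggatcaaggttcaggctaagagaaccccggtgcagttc
Mvd, chr8:122443373-122443672, minus strand: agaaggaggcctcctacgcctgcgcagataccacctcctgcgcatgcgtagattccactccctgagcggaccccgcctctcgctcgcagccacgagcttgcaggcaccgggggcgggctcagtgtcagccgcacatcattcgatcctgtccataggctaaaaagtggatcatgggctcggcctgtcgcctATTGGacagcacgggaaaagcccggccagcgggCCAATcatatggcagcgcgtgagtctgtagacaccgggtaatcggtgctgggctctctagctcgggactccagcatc
Hmgcs1, chr13:119690101-119690400, plus strand: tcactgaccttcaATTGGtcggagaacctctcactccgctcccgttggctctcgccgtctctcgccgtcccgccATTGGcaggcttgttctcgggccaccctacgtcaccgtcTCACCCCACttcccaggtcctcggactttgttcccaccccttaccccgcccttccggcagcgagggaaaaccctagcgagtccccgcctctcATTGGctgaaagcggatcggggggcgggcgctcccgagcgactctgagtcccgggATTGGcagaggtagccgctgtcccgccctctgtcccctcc

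HT-Flx replicate 2, which was high for Mvd and Hmgcs1, was also high for some genes switched on by neuronal activity. Fosb, an activity-dependent transcription factor, was at 255, 3729, 472 and 366 in HT-Flx replicates 1 to 4 and at 239.6 to 438 in the other 12 mice. Nptx2, a secreted organizer of excitatory synapses, was at 714, 6245, 791 and 863 in HT-Flx and at 750.2 to 1004 elsewhere. Both genes were picked after their values had been seen. This mouse had the highest value of all 16 for 8 of 20 activity-regulated genes, 7 of 22 cholesterol synthesis genes and 12.3% of all genes tested. It was not alone in this, since HT-Flx replicate 3 was the highest for 6 of 20 activity-regulated genes (6.70% of all genes) and WT-Veh replicate 2 for 6 of 22 cholesterol synthesis genes (2.33% of all genes), and over all genes WT-Veh replicate 1 was the highest for 14.2% and WT-Flx replicate 1 for 12.3%. The activity list as a whole had a median interaction of 0.20 with 14 of 20 positive, and 0.13 with 12 of 20 without HT-Flx replicate 2.

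The 1 of 20 activity-regulated genes at an unadjusted p under 0.05 (5%, against 4.29% of all genes) went against the median of its list. Nr4a2 (ENSMUSG00000026826, chromosome 2, 57106830 to 57124003), a nuclear receptor induced by activity, was at 393, 243, 209 and 237 in WT-Veh, 535, 534, 517 and 423 in WT-Flx, 494, 227, 196 and 533 in HT-Veh, and 216, 381, 191 and 345 in HT-Flx. WT-Flx lay above WT-Veh in all mice, while HT-Veh split into a high and a low pair. The interaction was -1.21 (SE 0.43, limma adjusted p 0.998).

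In the pathway that the study examined, 1 of 7 measured deacetylases and MEF2 factors had an unadjusted p under 0.05. That is 14.3%, against 4.29% of all genes. The gene was Hdac4 (ENSMUSG00000026313, chromosome 1, 91928779 to 92195699), a class IIa histone deacetylase that represses MEF2 factors. It was at 1316, 2151, 2204 and 2046 in WT-Veh, 1343, 1624, 1577 and 1534 in WT-Flx, 1854, 2128, 2002 and 1728 in HT-Veh, and 1975, 2801, 2004 and 1955 in HT-Flx. WT-Veh replicate 1 was the lowest mouse of all and HT-Flx replicate 2 the highest, and the drug groups overlapped in both genotypes. The interaction was 0.48 (SE 0.21, limma adjusted p 0.998), 0.36 without HT-Flx replicate 2 and 0.27 when the bulb score was fitted as a covariate. Without the 4 mice set aside for their bulb markers it was 0.53 (SE 0.17). Over the 29 alternatives it ran from 0.27 to 0.66. Mef2a (-0.14, SE 0.15), Mef2c (0.063, SE 0.21) and Mef2d (0.046, SE 0.17) had intervals that held 0.

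Of 18 measured genes of the serotonin system, on which fluoxetine acts, 1 had an unadjusted p under 0.05, or 5.56% against 4.29% of all genes, and the median was -0.14 with 6 of 18 positive. The gene was Htr4, a receptor that raises cyclic AMP, at 7.72, 24.2, 12.0 and 28.6 in WT-Veh, 5.03, 9.93, 15.9 and 18.8 in WT-Flx, 6.03, 14.3, 13.9 and 18.3 in HT-Veh, and 21.2, 46.7, 16.3 and 45.1 in HT-Flx. These levels are near the low-value filter, and groups overlapped in both genotypes. The interaction was 1.68 (SE 0.70, limma adjusted p 0.998). The receptors Htr1a (-0.11, SE 0.22), Htr2a (-0.30, SE 0.20) and Htr5a (0.16, SE 0.16) had intervals that held 0.

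SWI/SNF subunits, the complex in which Arid1b works, had 2 of 30 genes at an unadjusted p under 0.05, or 6.67% against 4.29% of all genes, both negative, and a median of -0.0055. Smarca2, an ATPase of the complex, was at 8035 to 8521 in WT-Veh, 9659 to 11144 in WT-Flx, 8193 to 9505 in HT-Veh and 7759 to 9705 in HT-Flx. Its interaction was -0.29 (SE 0.11, limma adjusted p 0.998). Smarce1, a subunit with an HMG box, had -0.46 (SE 0.18, limma adjusted p 0.998). It was -0.19 without the 5 mice with a bulb score above 5, with WT-Flx replicate 3 as the only WT-Flx mouse. For both genes the WT groups were apart and the HT groups overlapped.

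Genes of protein synthesis and respiration had calls of both signs, and their balance moved with the mice and the fit. Among 82 cytoplasmic ribosomal protein genes 3 were positive and 4 negative at an unadjusted p under 0.05 (median 0.033), among 78 mitochondrial ones 0 and 1 (0.025), and among 76 nuclear genes of oxidative phosphorylation 2 and 2 (0.09), which is 8.54%, 1.28% and 5.26% of the lists against 4.29% of all genes. Without the 4 mice set aside for their bulb markers the cytoplasmic list held 20 positive and 3 negative genes (median 0.13), the mitochondrial list 8 and 1 (0.10) and oxidative phosphorylation 23 and 1 (0.18). Leaving out WT-Flx replicate 1 alone gave 11 and 1 (0.13), 9 and 1 (0.11) and 17 and 0 (0.20), whereas leaving out WT-Veh replicate 1 alone gave 2 and 8 (-0.10), 0 and 2 (-0.047) and 1 and 4 (0.0014). No gene of these lists passed the adjusted threshold in any of these fits. Examples were Rpl22l1 (0.73, SE 0.25) against Rpsa (-0.39, SE 0.15), and Atp5e (0.79, SE 0.26) against Ndufa12 (-0.40, SE 0.16), all with a limma adjusted p of 0.998. With the bulb score as a covariate Rpl22l1 was at 0.88, Rpsa at -0.23, Atp5e at 0.93 and Ndufa12 at -0.26. Reads of ribosomal protein genes can be shared with processed copies. Of 13 mitochondrially encoded genes 11 were negative, with a median of -0.23. The 1 at an unadjusted p under 0.05 (7.69%, against 4.29% of all genes), mt-Nd3, was positive (1.19, SE 0.50). It was at 1.88 without the 4 mice set aside for their bulb markers.

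Synaptic and interneuron lists stayed near the median of all genes. Gria1, an AMPA receptor subunit, had -0.28 (SE 0.13) as the 1 of 17 ionotropic glutamate receptors at an unadjusted p under 0.05 (5.88%, against 4.29% of all genes). It was at -0.16 with the bulb score as a covariate and at -0.25 without the 4 mice set aside for their bulb markers. Nlgn2, the neuroligin of inhibitory synapses, had 0.19 (SE 0.087) as the 1 of 21 scaffolds and adhesion proteins (4.76%). None of 13 GABA-A receptor genes was under 0.05. Of 14 GABAergic markers 2 were (14.3%, against 4.29% of all genes), Pvalb (0.55, SE 0.24) and the potassium channel Kcnc1 (0.36, SE 0.17). With the bulb score as a covariate they were at 0.25 and 0.15, and without those 4 mice at 0.54 and 0.30. Of the 14 markers 8 had a positive and 6 a negative interaction. Hapln1, a link protein, had 0.57 (SE 0.26) as the 1 of 13 genes of perineuronal nets (7.69%). It was 0.38 without WT-Flx replicate 1. Of 20 clock genes 2 were under 0.05 (10%), Ciart (-0.37, SE 0.16) and Tef (0.27, SE 0.13). These clock output genes lay on opposite sides. Tef was at 0.13 with the bulb score as a covariate and at 0.28 without those 4 mice. All 7 had a limma adjusted p of 0.998.

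The lists with the largest medians were those of tissue next to the cortex. Markers of olfactory bulb projection neurons had 0 of 8 positive and a median of -2.24, striatal neurons 0 of 13 and -0.59, and migrating neuroblasts and bulb granule cells 1 of 14 and -0.43, with 0 genes of the 3 lists at an unadjusted p under 0.05. Cdhr1, a cadherin of mitral cells, was at 63.3 to 3485 and had an interaction of -3.31 (SE 1.60). With the bulb score as a covariate the neuroblast median was 0.20. Without the 5 mice with a score above 5 the striatal median was 0.62, with WT-Flx replicate 3 as the only WT-Flx mouse. Across all genes tested, the interaction and the slope on the bulb score within groups had a Pearson r of -0.26. Of the 403 genes with a negative interaction at an unadjusted p under 0.05, 68.0% had a positive slope, against 41.6% of the 351 positive ones and 51.0% of all genes.

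For blood, vascular and other cell types, medians were -0.091 for 5 blood genes, -0.13 for 21 vascular genes, -0.065 for 16 microglia genes, 0.096 for 13 upper-layer and -0.14 for 14 deep-layer genes, and 0.078 for 14 GABAergic genes. At an unadjusted p under 0.05 were 1 of 21 vascular (4.76%), 1 of 16 microglia (6.25%) and 1 of 15 astrocyte genes (6.67%). Over all genes it was 4.29%, and the 2 GABAergic genes are given above. The 3 were Acta2 of vascular smooth muscle (-0.57, SE 0.26), Ctss of microglia (-0.32, SE 0.15) and the astrocyte gene Ntsr2 (-0.33, SE 0.15). Ntsr2 was at -0.19 (SE 0.16) without the 4 mice set aside for their bulb markers. Of 5 choroid plexus genes 2 were positive, with a median of -0.062, and 1 was at an unadjusted p under 0.05 (20%, against 4.29%). This was Ttr, the defining gene of choroid plexus, with 2.65 (SE 0.92). Ttr was at 17.1, 48.7, 74.8 and 243 in WT-Veh against 3.08 to 33.1 elsewhere. With the bulb score as a covariate its interaction was 1.75.

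The remaining lists held few or no genes at an unadjusted p under 0.05. These were 0 of 20 interferon response genes (median -0.075) and 0 of 18 neuropeptide precursors (0.0078). Among 7 copies of Tmem181 and Dynlt1 beside Arid1b, whose reads may be shared, it was 0 as well (0.094). All 7 copies had a positive interaction, and their median ran from 0.048 to 0.41 over the 29 alternatives. Of 10 fragile X targets Hdac4 was the 1 under 0.05 (10%, against 4.29% of all genes), and the median was 0.017. The study had named these targets from its own results, so that they are no independent evidence.

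**Figure D5:**
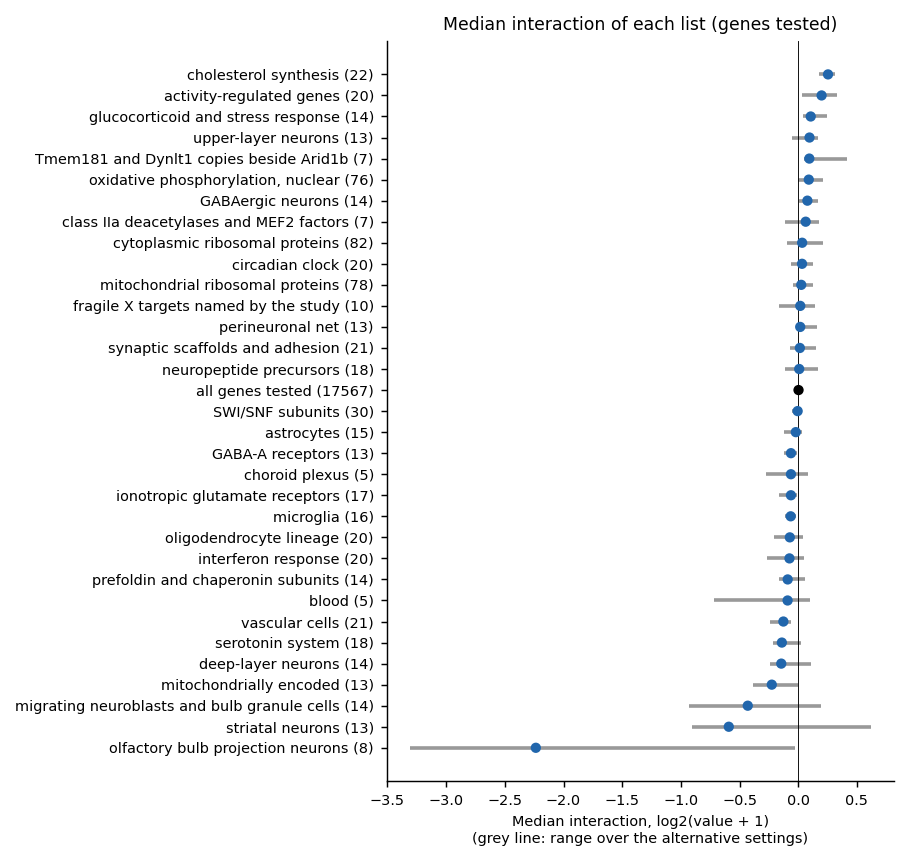
Median interaction on the log2 scale (points) of each of the 32 lists and of all genes tested (black), with the number of genes tested in brackets. Grey lines are the range of the median over the 29 alternative settings, which include the linear-scale fit, not in log2 units. Cholesterol synthesis lies at the positive end, at 0.25, and its range stays on that side, while the range of the olfactory bulb list runs from -3.31 to -0.024, of which the upper end comes from the fit with the bulb score, the mean of these same genes, as a covariate and is near 0 by construction.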

How the data were processed

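Poly-A RNA of the medial prefrontal cortex of 16 male mice, 4 in each of 4 groups, was sequenced. The authors quantified reads against GRCm38 with Salmon 1.1.0 and imported them by gene with tximport, and the deposited signal values are normalized read counts that the authors obtained by dividing counts by DESeq2 (version 1.30.1) size factors. They are not whole numbers and whole reads could not be recovered, so no count model was used and depth is unknown. Precision is limited by the number of mice and by the number of treated dams, which the labels do not give.

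Genes reaching 10 in 4 or more mice were kept (857 of 18424 were removed), and log2(value + 1) was fitted over all 4 groups with limma 3.58.1 in R 4.3.3, with an intensity trend and Benjamini-Hochberg adjustment over the 17567 genes. Fold changes on this scale understate the change of low genes. A p was called past the threshold at an adjusted value under 0.05. The script was tested on simulated data. Coordinates and gene types are those of the GRCm38 annotation. Drug groups were called apart where no mouse of one lay within the range of the other.

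The text names Arid1b, the 10 coding genes with the smallest p in each direction, 3 genes of other types in each direction, up to 10 genes apart in both genotypes with opposite signs, and up to 3 genes from each of 32 lists at an unadjusted p under 0.05, or the 1 with the smallest p; other members of the cholesterol synthesis, activity, serotonin and deacetylase lists are named for their role. Some genes that meet this rule are not reported here, though counts and medians include them. The interaction, the members and the lists were chosen with earlier results of these data known. There were 29 alternatives: other pseudocounts (0.1 and 8), filters and scalings, weights for sample quality, replicate number as a block, the bulb score as a covariate, the linear scale, no intensity trend, leaving out each mouse, and leaving out bulb-rich mice. On the linear scale each value was divided by the mean of its gene, so interactions there are not in log2 units. Ranges over the alternatives include that fit. The 4 mice set aside for their bulb markers did not include WT-Flx replicate 2. Leaving out the 5 mice with a bulb score above 5 was chosen after seeing the data. It left WT-Flx replicate 3 as the only mouse of its group.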

Additional observations from a re-analysis of the deposited data

Results flagged for a closer look

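In groups of 4, a mouse was singled out where its gap to the nearest other mouse exceeded Dixon's 95% limit as a share of the group's range. This was so in 24 of 300 checks, and chance alone gives about 1 in 20. No interaction passed its test, so none is listed as differing between the genotypes.

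WT-Veh replicate 1 was high for the bulb score (9.15, others 3.37 to 4.06) and for Cdhr1 (3485), Trh (519.9) and Sp8 (992). It was also high for Dnaja4 (1502), Atp5e (1548), Rpl24 (3808) and Ndufb6 (1052), and low for Pvalb (819). HT-Veh replicate 4 was high for the bulb score (7.27, others 3.29 to 3.91), Cdhr1 (1239), Trh (133), Sp8 (259), Penk (4453) and Stim2 (2215).

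Single values stood apart in other mice. HT-Flx replicate 2 was high for Hdac4 (2801), HT-Flx replicate 1 for 4930447M23Rik (162), HT-Flx replicate 4 for Fancg (363), HT-Veh replicate 1 for Nlgn2 (7875) and WT-Flx replicate 1 for Smarca2 (11144). Low values were those of Nr4a2 in WT-Flx replicate 4 (423), Ror2 in WT-Veh replicate 4 (12.2), Penk in WT-Flx replicate 3 (1426) and Arid1b in HT-Flx replicate 4 (1545).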

How the results depend on the processing

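Under 28 of 29 alternatives 0 genes had an adjusted p under 0.05; the smallest was 0.0565, for Gm38226 without HT-Veh replicate 1. Without the 5 mice with a bulb score above 5 there were 2, Gm14288 (2.84, limma adjusted p 0.000198) and Trpc2 (4.83, adjusted p 0.00337), and both rest on WT-Flx replicate 3 alone, at 53.4 and 0, which is assumed to vary like the other groups. At an unadjusted p under 0.05 the count was 1952 with sample quality weights and 1634 without the 4 mice set aside for their bulb markers. On leaving out each mouse it was 601 to 1684, the highest without WT-Veh replicate 1 and 1182 without WT-Flx replicate 1. Of the 754 genes, 500 were shared without the 4 mice, 422 with the bulb covariate and 279 without the 5. Genes apart in both genotypes numbered 183 without the 4 mice, 283 without the 5 and 7 to 24 on leaving out each mouse; smaller groups overlap less by construction. The correlation of the drug changes was -0.18 at a mean of at least 100, -0.17 with the covariate, -0.067 without the 4 mice, -0.069 without the 5, -0.064 on the linear scale and -0.15 to -0.037 on leaving out each mouse; the cause was not tested.

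Arid1b changed sign to 0.020 with quality weights, 0.025 on the linear scale and 0.0017 without the 5 mice. Without single mice it ran from -0.10 to 0.12, and was positive at 0.12 (WT-Veh replicate 1), 0.05 (WT-Flx replicate 2), 0.013 (WT-Flx replicate 3), 0.045 (HT-Veh replicate 1) and 0.017 (HT-Flx replicate 4). Trh was at 0.0020 and Sp8 at 0.078 with the covariate, and Penk at 0.30 without the 5 mice. A common upper quartile split the calls into 275 positive and 473 negative, with the median of all genes at -0.02. With the replicate number as a block there were 944 genes at an unadjusted p under 0.05 and 0 past the adjusted threshold; same-numbered mice had mean correlations of 0.011 to 0.13 between groups with a lowest pair of -0.23, so the numbers do not pair the mice. Depth could not be examined, and low genes had the widest errors.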
